A study of Mus musculus with 8 samples.

Results

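Fibroblast genes for matrix metalloproteinases and their inhibitors were followed through the first days of reprogramming. The 10 genes were Mmp2, Mmp3, Mmp9, Mmp10, Mmp11, Mmp13 and Mmp14 and the inhibitor genes Timp1, Timp2 and Timp3. They were taken by symbol from a table of 32108 mouse genes, 10 of 10 were found, and all 10 passed a filter of at least 1 CPM in at least 2 libraries. The samples were mouse embryonic fibroblasts of the 4F2A strain, homozygous and prepared from embryos of 13.5 dpc that the labels call male. In 4F2A cells, doxycycline switches on Oct4, Sox2, Klf4 and c-Myc from a transgene in the Col1a1 locus. All 8 libraries came from cells with 2 µg/mL doxycycline from day 0, in medium with serum replacement and 1000 U/mL LIF. They were harvested on day 2, 4, 6 or 8 (groups D2, D4, D6 and D8, with 2 libraries each). Every title carries the word Ctr, no group without doxycycline is analysed here, and each difference is therefore one between days of induction. Whether replicate libraries stem from different embryos or culture dishes is not stated, so p-values measure only the spread between these libraries, which may be technical.

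Matrix metalloproteinases are zinc-dependent endopeptidases that cut collagens, proteoglycans, adhesion proteins and growth factor binding proteins outside the cell. Most are made as latent proenzymes, which plasmin, furin or other metalloproteinases activate by removing or displacing the propeptide. Tissue inhibitors of metalloproteinases (TIMPs) occupy the active site of the mature enzymes. Fibroblasts are a main source of both, and in many of these genes an AP-1 element near the start of transcription is known to respond to growth factors and cytokines.

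Values are CPM, the reads of a gene per 1000000 counted reads of its library. The libraries held 19409936 to 20161021 counted reads, and a floor of 3 reads equalled 0.149 to 0.155 CPM, for counting error only. All 10 fibroblast markers were above 1 CPM in every library. They summed to 25848 and 25850 CPM in D2, 40664 and 44057 in D4, 31607 and 34946 in D6, and 30854 and 33915 CPM in D8. Single markers moved in both directions, with Lum at 11.3 CPM in D2 and 844 in D8, and Vim at 4748 and 2586 CPM. Macrophage and leukocyte markers summed to 70.9 to 104 CPM, with 8 of 10 above 1 CPM in every library. Neutrophil markers summed to 0.298 to 1.37 CPM, with Elane at 0 in all libraries. Endothelial markers summed to 68.95 to 165 CPM, of which Tek made nearly all, while Pecam1 reached at most 1.29 CPM. The sum of 6 epithelial markers lay between 34.0 and 202 CPM and that of 6 bone and cartilage markers between 23.0 and 62.3 CPM. Smooth muscle markers summed to 3052 and 2940 CPM in the D2 libraries and to 610 to 918 CPM later. The part of these other markers in the results was not tested. Xist lay between 702 and 1238 CPM, and the Y-linked gene Ddx3y reached at most 0.333 CPM, against the label of male embryos. In these bulk samples, fewer cells of a type and less RNA per cell cannot be told apart.

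The promoters of Mmp3, Mmp10 and Mmp13 are shown because these 3 genes lie in 1 cluster and had the highest folds of the 10 from D2 to D4. Of the 10 genes, 8 had a window in the RefSeq table (GRCm38.p6), from 250 bases before to 50 after the RefSeq start, and Mmp2 and Mmp9 had none. Capitals mark the AP-1 element TGAGTCA, or TGACTCA where it lies on the opposite strand, and the TATA box TATAAA. The windows, all on the plus strand, are chr9:7445572-7445871 for Mmp3, chr9:7502092-7502391 for Mmp10 and chr9:7272264-7272563 for Mmp13.
Mmp3: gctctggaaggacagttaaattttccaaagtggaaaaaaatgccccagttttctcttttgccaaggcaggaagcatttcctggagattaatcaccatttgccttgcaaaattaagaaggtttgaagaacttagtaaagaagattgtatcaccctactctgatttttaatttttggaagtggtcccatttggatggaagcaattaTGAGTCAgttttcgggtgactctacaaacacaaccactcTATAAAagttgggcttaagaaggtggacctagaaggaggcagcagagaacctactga
Mmp10: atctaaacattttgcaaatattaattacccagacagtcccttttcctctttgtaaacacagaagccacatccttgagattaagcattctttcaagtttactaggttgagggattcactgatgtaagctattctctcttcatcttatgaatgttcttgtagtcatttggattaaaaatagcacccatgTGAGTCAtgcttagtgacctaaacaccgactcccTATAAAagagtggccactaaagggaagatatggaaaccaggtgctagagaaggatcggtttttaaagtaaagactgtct
Mmp13: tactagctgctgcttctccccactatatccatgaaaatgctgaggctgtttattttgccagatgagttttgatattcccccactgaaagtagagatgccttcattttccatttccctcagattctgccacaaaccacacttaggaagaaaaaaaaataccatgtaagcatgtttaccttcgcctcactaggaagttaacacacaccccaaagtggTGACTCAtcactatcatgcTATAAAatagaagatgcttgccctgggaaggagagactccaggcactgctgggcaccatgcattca
The AP-1 element began 46 bases before the start in Mmp3, 63 before in Mmp10 and 35 before in Mmp13, where it read on the opposite strand. The TATAAA match began 7, 29 and 16 bases before the start in the same order. All these distances are from the RefSeq start, and whether transcription began there in these cells was not tested. Searched on both strands, TGAGTCA was in 3 of the 8 windows and TATAAA in the same 3, against 5.2% and 13.6% of 32851 windows of 300 bases. Both were in 0.941% of all windows. The ETS core AGGAAG, which overlaps neither motif, was in 5 of the 8 windows and in 35.4% of all. These matches describe letters in a window and are not evidence of binding.

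Adjusted p-values are from limma, with the Benjamini-Hochberg method over 15358 tested genes, and calls needed a value under 0.05. Printed changes are differences of log2(CPM + 1), later minus earlier day, a scale on which low genes appear to change less than their fold in CPM. From D2 to D4, 6 of the 10 genes rose and 3 fell. Of all tested genes 62.5% were called in this step, 40.9% as higher and 21.7% as lower. The libraries of the 2 days did not overlap for 9 of the 10 genes, nor for 81.3% of all. From D4 to D6, 0 of the 10 rose and 7 fell (0 and 8 at an unadjusted p under 0.05), where 37.7% of all were called, 25.2% as higher and 12.6% as lower. In this step 9 of the 10 did not overlap, and 69% of all. From D6 to D8 there were 1 rise and 2 falls, where 9.11% of all were called, 4.72% as higher and 4.39% as lower, and 4 of the 10 did not overlap, against 55.8% of all. The 1 rise was not called without D6 replicate 1, D6 replicate 2 or D8 replicate 1, and the falls numbered 0 without D6 replicate 1 or D8 replicate 1 and 1 without D2 replicate 1, D2 replicate 2 or D6 replicate 2. The direction of calls over all genes depended on scaling: 66.7% of those from D4 to D6 were higher as deposited, 46.8% under median-of-ratios scaling and 47.7% under quantile normalization.

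Over the whole span from D2 to D8, 4 rose and 5 fell, where 70.4% of all were called, 47.3% as higher and 23.1% as lower, and 10 of the 10 did not overlap, against 85.7% of all. In the F test over days 10 of 10 were called, as were 80.4% of all tested genes. The median change of the 10 was 0.44 from D2 to D4, where that of all tested genes was 0.11. For the step to D6 the medians were -0.50 and 0.07, for the step to D8 -0.01 and -0.001, and for the span -0.11 and 0.17. The 7 Mmp genes had a median of 1.65 in the first step and the 3 Timp genes -0.83. The comparisons share libraries, so their counts are not independent.

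**Figure D1:**
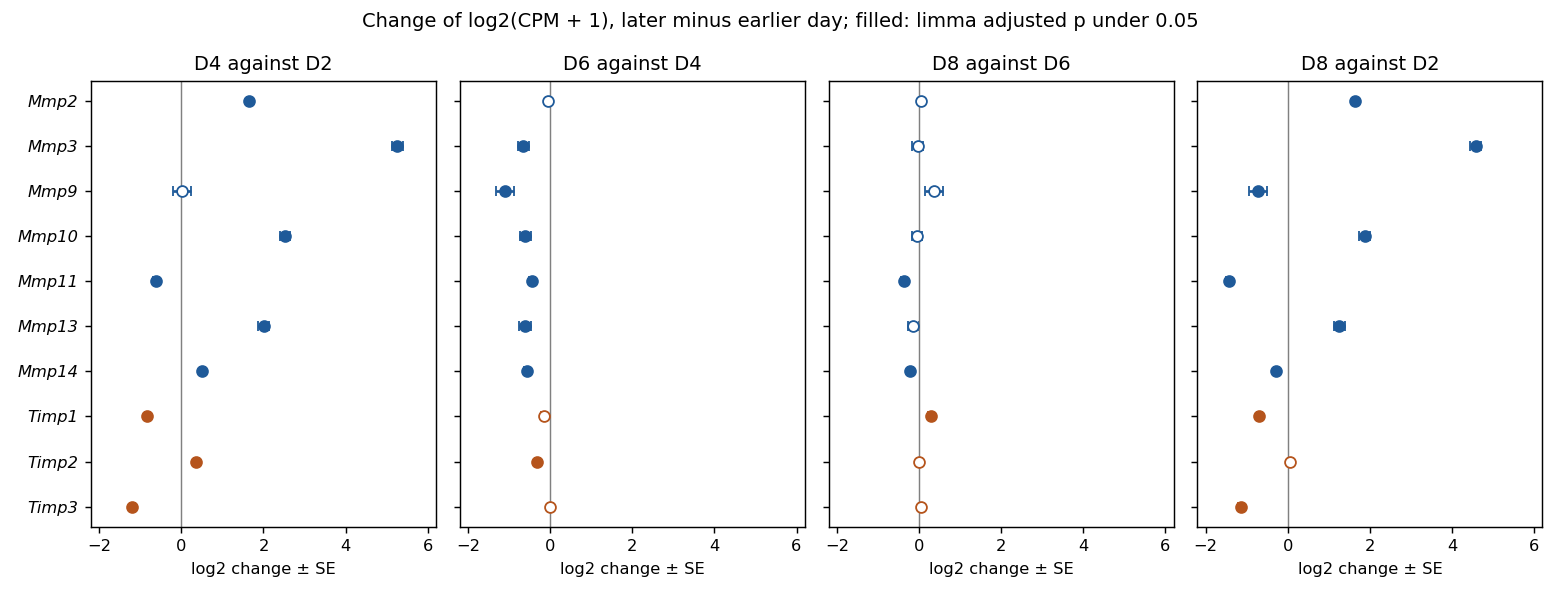
Change of each gene in log2(CPM + 1), later minus earlier day, in the 4 comparisons, with bars for the SE and filled points for an adjusted p under 0.05. The first step holds the widest range, from -1.20 for Timp3 to 5.26 for Mmp3, and the step from D6 to D8 the narrowest.

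Mmp3, Mmp10 and Mmp13 lie in a cluster of 10 Mmp genes on chromosome 9 (7272514 to 7699585, mm10, GENCODE M21) with no other protein-coding gene inside it. All 3 rose steeply from D2 to D4, fell in part by D6 and were not called again between D6 and D8. The other 7 genes of the cluster stayed at or below 1.19 CPM in every library. The stromelysins made from Mmp3 and Mmp10 cut proteoglycans, laminin and fibronectin and activate procollagenases.

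Mmp3 (chromosome 9, 7445822 to 7455975) stood at 7.81 and 12.2 CPM in D2, 446 and 381 in D4, 256 and 267 in D6, and 269 and 245 CPM in D8. The D2 libraries were far below all others, the D4 libraries were above all others, and D6 and D8 overlapped. Its mean rose 41.4-fold from D2 to D4, a change of 5.26 ± 0.13 in log2(CPM + 1) (± SE, adjusted p = 5e-12). From D4 to D6 it fell by 0.66 (adjusted p = 0.002, and 0.062 when no filter on low values was used). D8 against D6 gave -0.03 (adjusted p = 0.93), which left Mmp3 25.7-fold above D2 in D8 (adjusted p = 5.5e-12).

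Mmp10 (chromosome 9, 7502352 to 7510240) encodes the other stromelysin of the cluster. It stood at 13.3 CPM per kb of exon in D4, where Mmp3 stood at 230 CPM per kb. The values of Mmp10 were 2.78 and 3.56 CPM in D2, 25.2 and 20.7 in D4, 14.3 and 15.1 in D6, and 15.7 and 12.8 CPM in D8. The days D2, D4 and D6 did not overlap, while D8 spanned D6. It rose 7.23-fold from D2 to D4 (2.52 ± 0.13, adjusted p = 2.1e-09) and fell by 0.60 from D4 to D6 (adjusted p = 0.0025). In D8 it was 4.49-fold above D2 (adjusted p = 2.1e-08). Mmp3 and Mmp10 are related in sequence, and reads shared between them cannot be told apart in the deposited values.

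Mmp13 (chromosome 9, 7272514 to 7283331) encodes a collagenase, the main enzyme of this kind in rodents, that cleaves fibrillar collagen. It stood at 6.30 and 8.67 CPM in D2, 35.5 and 30.1 in D4, 18.3 and 24.0 in D6, and 18.2 and 19.8 CPM in D8. Every later library exceeded both D2 libraries, and the D4 libraries exceeded all others. The rise to D4 was 4.38-fold (2.00 ± 0.14, adjusted p = 5.3e-08). The fall of 0.62 by D6 (adjusted p = 0.0042) was not called without D6 replicate 1 (-0.43, adjusted p = 0.061) or without the filter (adjusted p = 0.069). In D8 the level was 2.54-fold that of D2 (adjusted p = 3.2e-06).

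**Figure D2:**
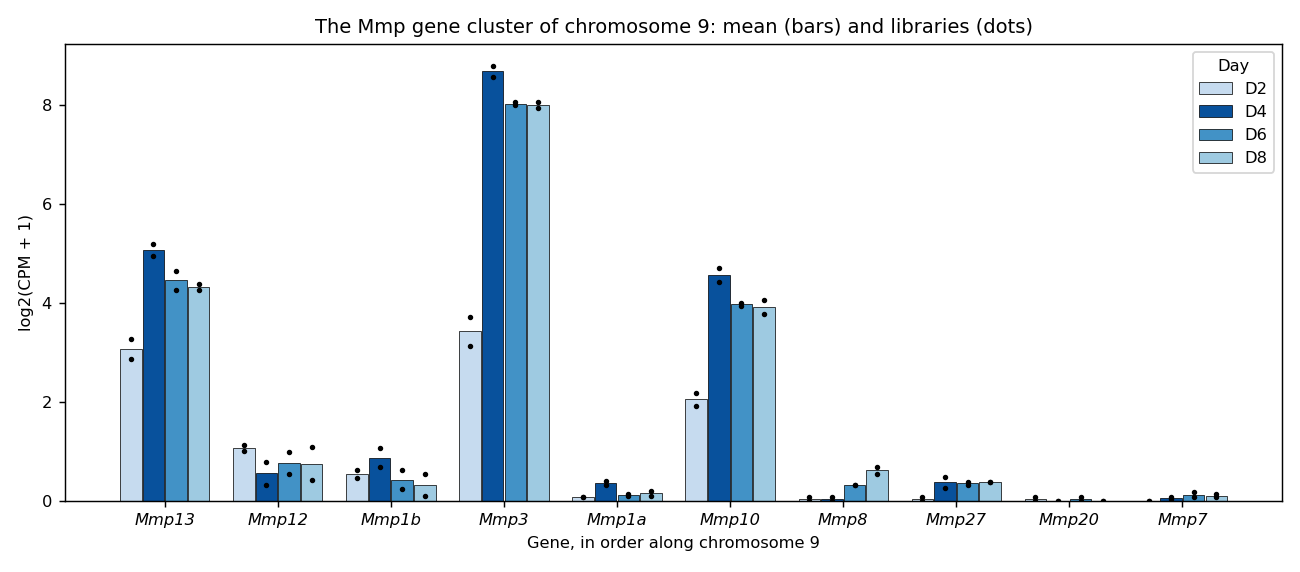
Levels of the 10 Mmp genes in their order along chromosome 9, as log2(CPM + 1) by day, with bars for the mean and dots for the 2 libraries. Mmp13, Mmp3 and Mmp10 stand out and are highest in D4, while the 7 genes between and beyond them stay at or below 1.19 CPM.

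The neighbours within the cluster showed no comparable level. Mmp12, macrophage elastase, lay between 0.251 and 1.19 CPM and was tested, with adjusted p = 0.2 in the F test over days. Its annotation overlaps that of Mmp1b on the opposite strand, and Mmp1b reached 1.10 CPM. Mmp1a, between Mmp3 and Mmp10, reached 0.325 CPM. Mmp8, neutrophil collagenase, reached 0.615 CPM, Mmp27 0.401, Mmp7 0.128 and Mmp20, the protease of enamel, 0.0512 CPM. Of these 7 only Mmp12 passed the filter on low values.

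The gelatinases Mmp2 and Mmp9 degrade denatured collagen and basement membrane collagen. Mmp2 (chromosome 8, 92827291 to 92853420) stood at 282 and 289 CPM in D2 and then at 893 and 904 in D4, 880 and 845 in D6, and 871 and 918 CPM in D8. The D2 libraries lay below all others, and the later days lay within 845 to 918 CPM. Its mean rose 3.15-fold by D4 (1.65 ± 0.05, adjusted p = 1.9e-11), and neither later step was called (-0.06, adjusted p = 0.38, and 0.05, adjusted p = 0.54).

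Mmp9 (chromosome 2, 164940780 to 164955850) was the lowest of the 7 Mmp genes per kilobase from D4 on. It stood at 5.85 and 12.4 CPM in D2, 8.44 and 8.92 in D4, 3.33 and 3.73 in D6, and 5.05 and 4.61 CPM in D8. The D2 libraries differed by more than 6 CPM and enclosed those of D4, while D6 lay below all other days. D4 against D2 gave 0.01 ± 0.22 (adjusted p = 0.96), and its sign turned with the library left out. Without D2 replicate 1 it was -0.47 (adjusted p = 0.011), and without D2 replicate 2 it was 0.50 (adjusted p = 0.0087). Mmp9 fell by 1.10 from D4 to D6 (adjusted p = 0.0017, and 0.053 without the filter). D8 against D2 gave -0.72 (adjusted p = 0.0097), which was not called without D2 replicate 2 (-0.23, adjusted p = 0.16), without D8 replicate 2 (-0.66, adjusted p = 0.055) or without the filter (adjusted p = 0.098).

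Macrophages are another known source of Mmp9. In D2 the macrophage and leukocyte markers summed to 70.9 CPM in replicate 1 and 97.7 CPM in replicate 2. Of these sums, Lyz2 alone made 35.0 and 51.4 CPM. The sums in D4 were 97.0 and 101 CPM, those in D6 94.0 and 104 CPM, and those in D8 85.5 and 75.0 CPM. The part of these cells in the Mmp9 values was not tested.

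Mmp14 (chromosome 14, 54431612 to 54445364) encodes the membrane-bound enzyme that cleaves collagen at the cell surface and activates the proenzyme of Mmp2, with Timp2 as the bridge between them. It stood at 566 and 550 CPM in D2, 777 and 811 in D4, 519 and 547 in D6, and 435 and 487 CPM in D8. The groups did not overlap: D4 was highest, then D2, D6 and D8. Mmp14 rose 1.42-fold by D4 (0.51 ± 0.06, adjusted p = 6.3e-06) and fell by 0.58 from D4 to D6 (adjusted p = 9.5e-06). The further fall of 0.21 by D8 had adjusted p = 0.044. It was not called without either D2 library (adjusted p = 0.083 each), D6 replicate 1 (0.088), D6 replicate 2 (0.21) or D8 replicate 1 (0.26), nor with a pseudocount of 0.1 (0.051), median-of-ratios scaling (0.065), no intensity trend (0.14) or no filter (0.16). D8 lay 0.28 below D2 (adjusted p = 0.00087).

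Mmp11 (chromosome 10, 75923222 to 75936496), a stromelysin activated by furin inside the cell and typical of stromal fibroblasts, fell at each step. Its values were 104 and 106 CPM in D2, 68.8 and 66.7 in D4, 52.3 and 47.6 in D6, and 35.3 and 41.9 CPM in D8. No day overlapped another. The changes were -0.63 (adjusted p = 8.3e-06), -0.43 (adjusted p = 6e-04) and -0.37 (adjusted p = 0.011), and D8 was 2.72-fold below D2 (adjusted p = 1.5e-09). The last step was not called without D6 replicate 1 (-0.30, adjusted p = 0.09) or D8 replicate 1 (-0.25, adjusted p = 0.095), nor without the intensity trend (0.067) or the filter (0.099). Chchd10, which overlaps Mmp11 on the opposite strand, reached 25.9 CPM.

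**Figure D3:**
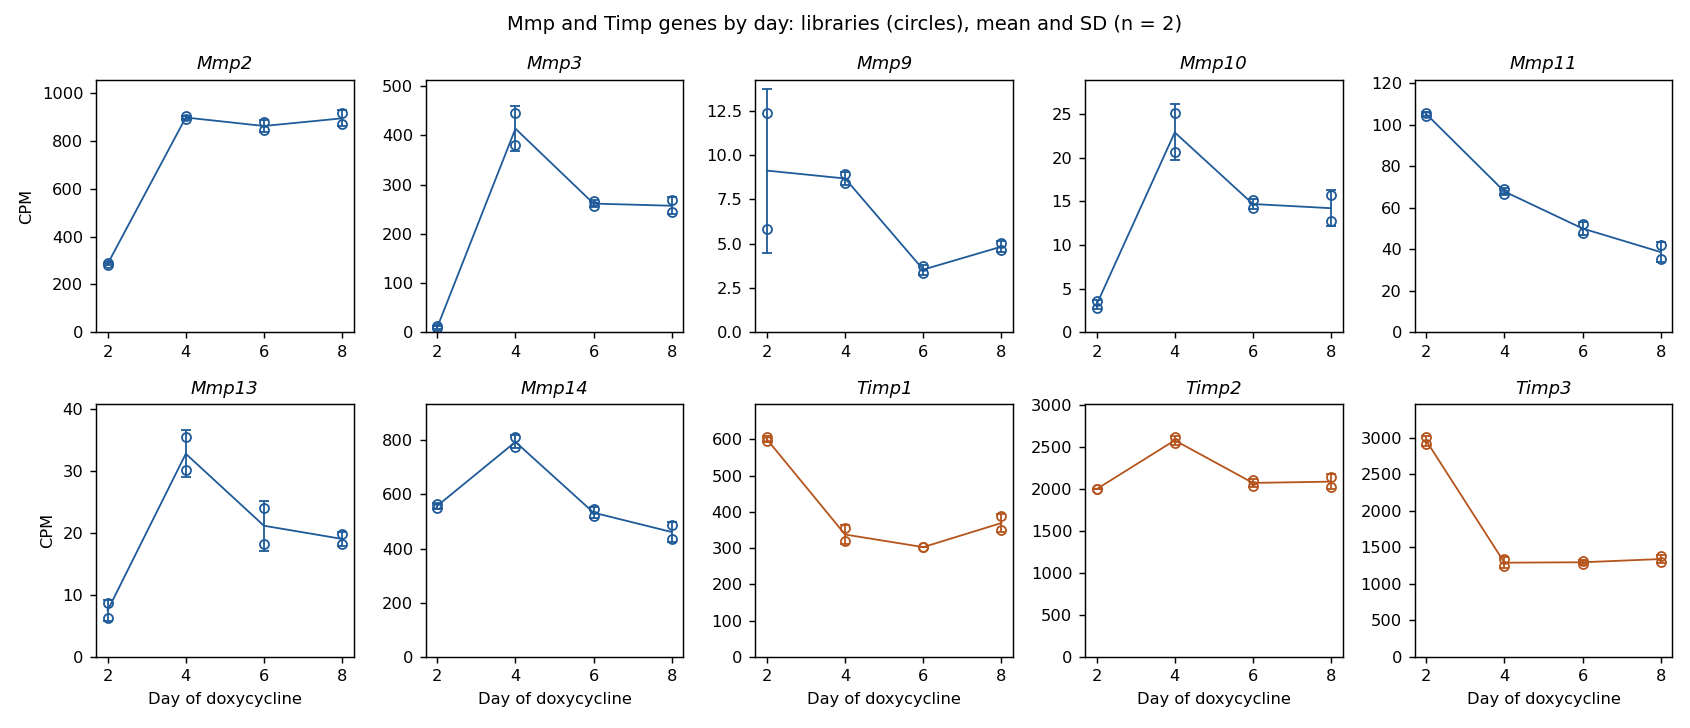
CPM of each gene against the day of doxycycline, with circles for libraries and the line and bars for the mean and SD of 2 libraries, each panel on its own linear axis from 0. Mmp3, Mmp10, Mmp13, Mmp14 and Timp2 have their highest libraries in D4, Mmp2 stays near its D4 level, Mmp11 falls throughout, and Timp1 and Timp3 are highest in D2.

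Among the inhibitors, Timp1 and Timp3 fell between D2 and D4 and Timp2 rose. Timp1 (chromosome X, 20870166 to 20874735), which inhibits most secreted metalloproteinases and only weakly the membrane-bound ones, stood at 594 and 605 CPM in D2, 356 and 318 in D4, 302 and 303 in D6, and 387 and 351 CPM in D8. D2 lay above all other days and D6 below them. It was 1.78-fold lower in D4 than in D2 (-0.83 ± 0.06, adjusted p = 8.2e-08). D6 against D4 was not called (-0.15, adjusted p = 0.063), but was with median-of-ratios scaling (-0.24, adjusted p = 0.0062) and without D4 replicate 2 (0.014) or either D8 library (0.045 each). The rise of 0.28 from D6 to D8 (adjusted p = 0.015) was not called without D6 replicate 1 or D6 replicate 2 (adjusted p = 0.073 each) or D8 replicate 1 (0.12), nor without the filter (0.1) or the intensity trend (0.086).

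Timp3 (chromosome 10, 86300372 to 86349506), an inhibitor bound to the matrix that also acts on ADAM proteases, stood at 2909 and 3005 CPM in D2, 1236 and 1340 in D4, 1312 and 1276 in D6, and 1302 and 1374 CPM in D8. The D2 libraries were more than 2 times as high as all others, and the later days overlapped. Its level was 2.30-fold lower in D4 than in D2 (-1.20 ± 0.06, adjusted p = 1.8e-09). The later steps gave 0.01 (adjusted p = 0.94) and 0.05 (adjusted p = 0.65).

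Timp3 lies within Syn3, a synapsin gene on the opposite strand, and the strandedness of the counting is not given in the sources used here. Syn3 stood at 863 and 878 CPM in D2 and at 373 to 424 CPM later, which was 29.2% to 32.0% of the Timp3 value in each library. Reads of the 2 genes cannot be told apart if counting ignored strand. Timp1 likewise lies within Syn1, which reached at most 7.74 CPM, and Timp2 overlaps Cep295nl on the same strand, which reached 7.27 CPM.

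Timp2 (chromosome 11, 118301069 to 118355740), which both inhibits metalloproteinases and takes part in the activation of Mmp2 by Mmp14, stood at 1996 and 1999 CPM in D2, 2542 and 2615 in D4, 2106 and 2037 in D6, and 2026 and 2147 CPM in D8. D4 was above all other days, and D6 and D8 overlapped. It rose 1.29-fold by D4 (0.37 ± 0.06, adjusted p = 1.1e-04) and fell by 0.32 by D6 (adjusted p = 0.001). D8 against D2 was not called (0.06, adjusted p = 0.36). Both values moved with scaling. Quantile normalization gave -0.01 for D6 against D4 (adjusted p = 0.91) and 0.62 for D8 against D2 (adjusted p = 3.1e-07), and median-of-ratios scaling gave -0.13 for D8 against D2 (adjusted p = 0.089).

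Levels between genes were compared per kilobase of annotated exon, the joined exons of all annotated transcripts of a gene. The transcripts present in these cells may be shorter, and another length would move ranks, shares and the level of ratios. Overlap refers only to the spread between 2 libraries. In D2 the inhibitors held the first 3 ranks, with Timp1 at 675 ± 9.13, Timp2 at 513 ± 0.57 and Timp3 at 363 ± 8.27 CPM per kb (SD, n = 2). Mmp14 (93.6 ± 1.84) and Mmp2 (84.7 ± 1.58) followed, then Mmp11 at 37.8 ± 0.35 CPM per kb. The other 4 Mmp genes lay between 1.84 and 5.54 CPM per kb on average. Of these, Mmp13 overlapped Mmp9, and Mmp9 overlapped Mmp10.

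By D4 the order had changed to Timp2 at 662 ± 13.1, Timp1 at 380 ± 29.9, Mmp2 at 266 ± 2.31, Mmp3 at 230 ± 25.5, Timp3 at 158 ± 8.98 and Mmp14 at 133 ± 4.05 CPM per kb, with no overlap between neighbours. Mmp3 thus moved from rank 7 to rank 4. In D6 and D8 Timp3 stood above Mmp3 again (159 ± 3.15 and 145 ± 4.32 CPM per kb in D6). Mmp10 and Mmp13 overlapped each other in D4, D6 and D8, and Mmp9 was lowest, at 2.45 ± 0.10, 0.998 ± 0.08 and 1.37 ± 0.09 CPM per kb.

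Summed per kilobase, the 7 Mmp genes stood at 229 ± 4.05 in D2, 682 ± 22.9 in D4, 526 ± 1.12 in D6 and 516 ± 7.48 CPM per kb in D8. The 3 Timp genes stood at 1551 ± 17.96, 1199.7 ± 7.78, 1031 ± 15.6 and 1115 ± 1.2 CPM per kb in the same order. The ratio of the Timp sum to the Mmp sum was 6.78 ± 0.04 in D2, 1.76 ± 0.05 in D4, 1.96 ± 0.03 in D6 and 2.16 ± 0.03 in D8. D2 was separated from the later days by far more than the spread between libraries. A single scaling factor for a library leaves this ratio as it is, and the ratio was not computed under quantile normalization. Within the Mmp sum, Mmp2 and Mmp14 made 37.0% and 40.9% in D2 and Mmp3 2.42%. By D4 Mmp2 made 39.1%, Mmp3 33.6% and Mmp14 19.6%, and in D8 51.4%, 27.7% and 15.0%. The sums are of mRNA, and the values do not show active enzyme or free inhibitor.

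**Figure D4:**
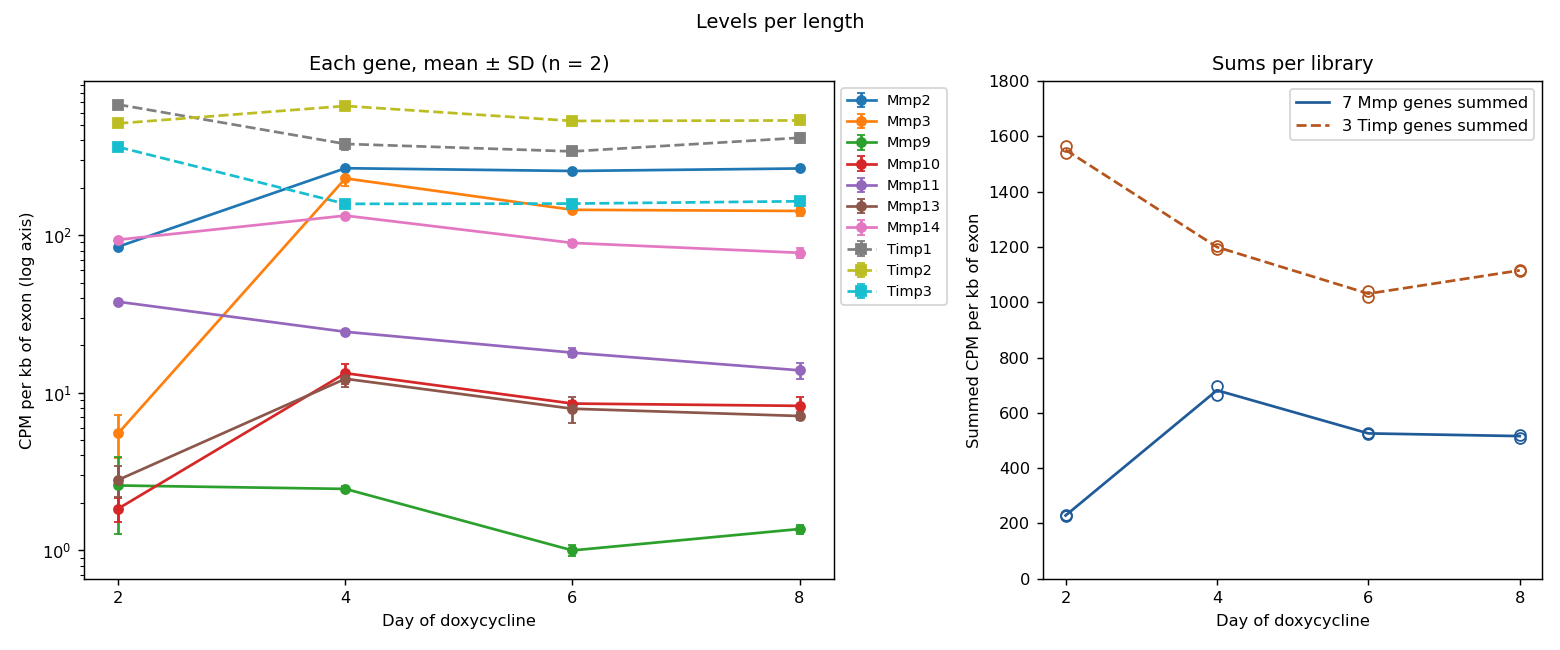
Left, CPM per kb of exon on a log axis against the day of doxycycline for the 10 genes, with mean and SD of 2 libraries, solid lines for Mmp and dashed lines for Timp genes. Right, the sums per library on a linear axis from 0, where the Timp sum falls from 1551 to 1199.7 and the Mmp sum rises from 229 to 682 CPM per kb between D2 and D4.

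Of the 17 other genes of the family, 9 passed the filter. From D2 to D4, 5 of them rose and 1 fell, where 62.5% of all tested genes were called. Over the span to D8, 5 rose and 1 fell, where 70.4% of all were called. The falls numbered 2 in the first step without D4 replicate 1 or any 1 of the D6 and D8 libraries. Over the span, 3 rose without D2 replicate 2 or D8 replicate 1, and 3 fell without D8 replicate 2. Under median-of-ratios scaling 3 rose and 2 fell over the span, and under quantile normalization 3 rose and 4 fell. From D4 to D6, 1 rose and 1 fell, where 37.7% of all were called. In the last step limma called 0, against 9.11% of all, and 1 (Mmp15, -0.24) had an unadjusted p under 0.05. Their median change was 0.32 from D2 to D4 and 0.21 over the span, and that of all tested genes was 0.11 and 0.17. Mmp28, epilysin, a secreted enzyme of epithelia and other tissues, went from 19.6 ± 0.81 CPM in D2 to 80.4 ± 1.01 in D4, 128 ± 1.72 in D6 and 120 ± 5.98 CPM in D8 (SD, n = 2). It rose from D2 to D4 (1.98, adjusted p = 1.1e-11) and again from D4 to D6 (0.66, adjusted p = 1.9e-06), a step in which 0 of the 10 genes rose. The epithelial marker sum stood at 35.6 and 34.0 CPM in D2, 83.3 and 64.3 in D4, 134 and 162 in D6, and 202 and 186 CPM in D8. Of its 6 markers Epcam, Krt18 and Krt5 stayed below 1 CPM, and the part of such cells in the values of Mmp28 was not tested. Mmp19 stood at 28.5 ± 0.20, 66.6 ± 3.59, 44.9 ± 1.90 and 42.4 ± 1.41 CPM, with a rise of 1.20 (adjusted p = 2.8e-09) and then a fall of 0.56 (adjusted p = 2e-05). Mmp23 rose by 0.77, and the membrane-bound Mmp15 and Mmp16 by 0.74 and 0.32, from D2 to D4 (adjusted p = 2.6e-06, 5.2e-05 and 0.0027). The call of Mmp16 was lost under quantile normalization (0.12, adjusted p = 0.18). Mmp17, a membrane-bound enzyme anchored by a lipid, fell from 3.13 to 1.10 CPM (-0.97, adjusted p = 1.3e-05). Timp4, the remaining inhibitor, lay at or below 0.102 CPM, under the floor.

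Genes that activate, inhibit or clear the enzymes moved in both directions. Of 26 listed, 22 were tested, with 9 rises and 9 falls from D2 to D4, 5 and 13 by D6, 4 and 4 by D8, and 8 and 11 from D2 to D8. The rises by D6 numbered 3 without D4 replicate 2 or D6 replicate 1. Those by D8 numbered 1 without either D2 or either D8 library and 2 without either D6 library, and the falls by D8 numbered 2 without D6 replicate 2 or D8 replicate 1. The list's median change was 0.07 in the first step and -0.14 over the span. For all tested genes these medians were 0.11 and 0.17. Of all, 62.5%, 37.7% and 9.11% were called in the successive steps and 70.4% over the span. Some genes of the plasminogen system were among the falls. Plau, urokinase, which generates plasmin, stood at 109 ± 9.28 CPM in D2 and 25.6 ± 0.07 in D4 (-2.04, adjusted p = 3e-10) and at 14.0 ± 0.71 CPM in D8. Its receptor gene Plaur went from 47.5 ± 4.78 to 15.4 ± 1.83 CPM (-1.57, adjusted p = 2.8e-08). Plg, the gene of plasminogen itself, was not above 0.0513 CPM, under the floor.

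Thbs1, a thrombospondin that takes part in the clearance of metalloproteinases, fell by 2.01 from D2 to D4 and 3.23 by D8 (adjusted p = 1.8e-10 and 1.1e-12). Thbs2 and Lrp1 of the same list, named here after their values were seen, rose by 1.06 and 0.43 from D2 to D4 (adjusted p = 2.9e-08 and 0.0011). Over the span Thbs2 rose by 0.33 (adjusted p = 0.00086) and Lrp1 was not called (adjusted p = 0.57). A2m, a broad protease trap, rose from 1.32 ± 0.53 CPM at the start to 5.88 ± 0.44 in D4 and 17.5 ± 3.41 CPM in D8 (3.0 over the span, adjusted p = 1.9e-08). Spock2, a testican, rose from 1.67 ± 0.03 to 6.42 ± 0.41 CPM between D2 and D8 (1.48, adjusted p = 6.2e-07). Reck, a membrane-anchored inhibitor of Mmp2, Mmp9 and Mmp14 that is named here after its values were seen, rose from 34.9 ± 0.73 to 67.5 ± 2.03 CPM (0.93, adjusted p = 3.2e-08) and stayed at 62.3 ± 4.21 and 62.3 ± 2.61 CPM.

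Of 16 matrix substrates 15 were tested, and 7 rose and 3 fell from D2 to D4, 1 rose and 13 fell by D6, 1 rose and 4 fell by D8, and 3 rose and 10 fell over the span. The 4 falls by D8 became 1 without D6 replicate 2 or D8 replicate 1. Their median change was 0.14 in the first step and -0.45 over the span, and the list shares Col1a1, Col1a2, Col3a1 and Dcn with the fibroblast markers. For all tested genes the medians were 0.11 and 0.17. Of all, 62.5%, 37.7% and 9.11% were called in the successive steps and 70.4% over the span. Eln, elastin, rose from 29.1 ± 0.51 to 297 ± 10.4 CPM by D4 (3.31, adjusted p = 4.8e-13) and the fibrillar collagen gene Col3a1 from 2047 ± 23.1 to 10533 ± 19.7 CPM (2.36, adjusted p = 1.5e-10). Dcn, decorin, a proteoglycan cut by Mmp3, rose at each step, from 204 ± 6.01 CPM at the start to 1781 ± 38.7 CPM in D8 (3.12, adjusted p = 1.4e-13). Fn1, fibronectin, fell from 12859 ± 245 to 3540 ± 399 CPM over the span (-1.87, adjusted p = 3.6e-09). Tnc, tenascin C, and Nid1, nidogen of basement membranes, fell by 2.87 and 1.41 (adjusted p = 7.6e-12 and 3.8e-10).

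Among 24 genes for transcription factors, cytokines and cytokine receptors known to act on these genes, 20 were tested, with 8 rises and 10 falls from D2 to D4, 3 and 13 in the next step, 0 and 4 in the last, and 6 and 14 from D2 to D8. The 3 rises of the second step became 1 without D4 replicate 2 and 0 without D6 replicate 2, and the 4 falls of the last became 1 or 2 when any 1 library of D2, D6 or D8 was left out. Over the span the rises numbered 3 under either of the other scalings. Counts at an unadjusted p under 0.05 from D6 to D8 were 2 and 8. The median change of the list was -0.22 in the first step and -0.60 over the span. For all tested genes these medians were 0.11 and 0.17. Of all, 62.5%, 37.7% and 9.11% were called in the successive steps and 70.4% over the span. Fos, Fosb and Fosl1 encode subunits of AP-1. Fos stood at 2.93 ± 0.71 CPM in D2, 130 ± 1.54 in D4, 4.97 ± 0.01 in D6 and 4.11 ± 0.06 CPM in D8, and its changes at the first steps were 5.07 and -4.45 (adjusted p = 2.5e-12 and 3.4e-11). Fosb went from 35.0 ± 4.29 to 114 ± 13.2 and then to 2.02 ± 0.33 CPM (1.68 and -5.26, adjusted p = 1.6e-07 and 3.4e-11). Fosl1, another Fos family member, fell from 30.0 ± 1.11 to 7.72 ± 0.53 CPM by D4 (-1.83, adjusted p = 2.7e-09). Among other listed AP-1 genes, named here after their values were seen, Junb rose by 0.25 from D2 to D4 (adjusted p = 0.0016). Jun was not called (adjusted p = 0.98), and Fosl2 and Jund fell by 1.44 and 0.59 (adjusted p = 2.4e-10 and 8.2e-07). Mmp3, Mmp10 and Mmp13 were highest on the same day as Fos and Fosb, as were Mmp14 and Timp2, whose windows lacked TGAGTCA. In D6 the means of Mmp3, Mmp10 and Mmp13 were 26.2, 4.64 and 2.83 times those of D2. Those of Fos, Fosb and Fosl1 were 1.69, 0.0579 and 0.202 times. Whether AP-1 acted on any of these Mmp and Timp genes was not tested. Ets1 and Ets2, whose products bind ETS cores, fell by 1.04 and 1.35 from D2 to D4 (adjusted p = 6.7e-08 and 3.6e-10). The ETS family genes Etv4 and Etv5, named here after their values were seen, rose by 0.99 and 1.03 (adjusted p = 7.9e-07 and 5.1e-08). Il33, a cytokine of the interleukin-1 family, rose from 3.78 ± 0.36 to 20.3 ± 0.69 CPM by D4 (2.16, adjusted p = 7.9e-10) and stood at 22.0 ± 2.32 CPM in D8. Tnf, Il1a, Il1b and Osm stayed below 1 CPM in every library.

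**Figure D5:**
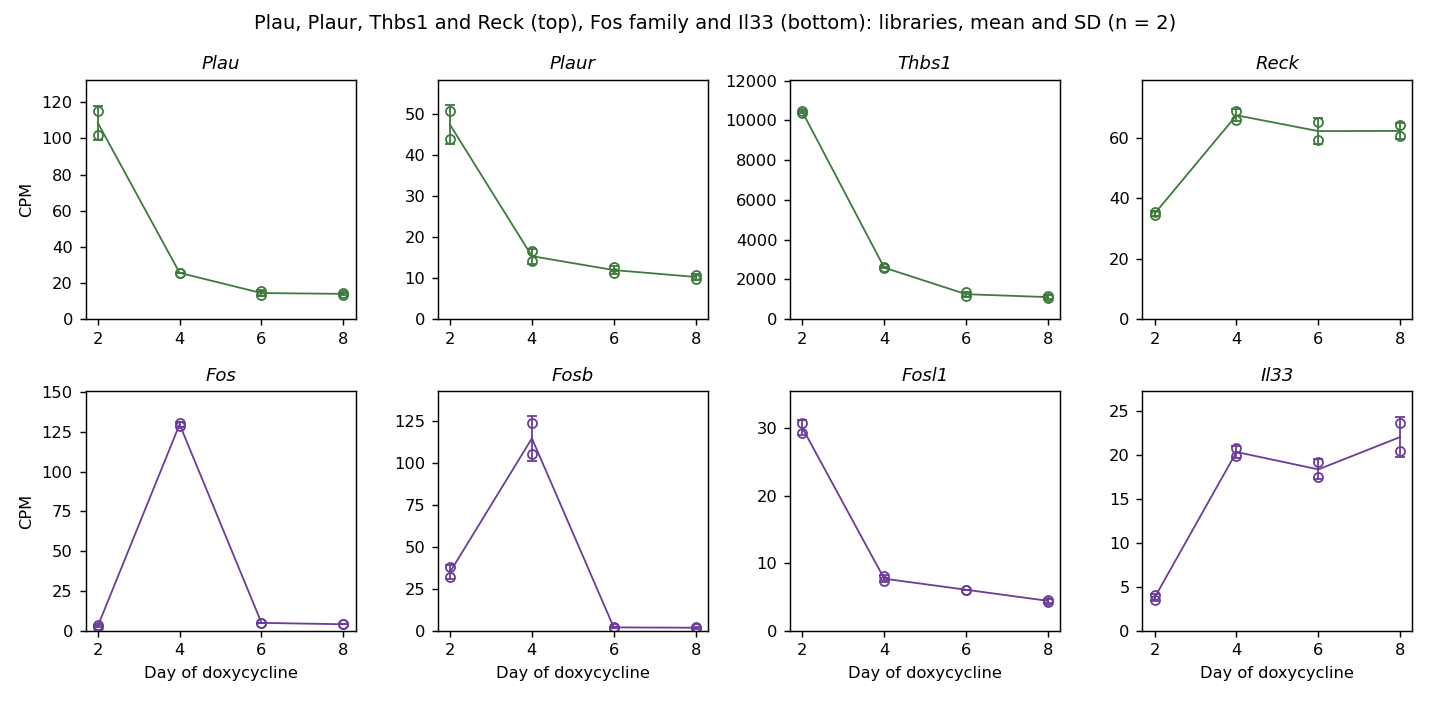
CPM against the day of doxycycline for 4 genes around the proteases (Plau, Plaur, Thbs1 and Reck, top) and 4 factor or cytokine genes (Fos, Fosb, Fosl1 and Il33, bottom), with circles for libraries and mean and SD of 2 libraries, on linear axes from 0. Plau, Plaur, Thbs1 and Fosl1 drop between D2 and D4, Fos and Fosb peak in D4, and Reck and Il33 rise and stay high.

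The genes whose course was most like each of the 10 were found by the root mean square difference of centred log2(CPM + 1) over the 8 libraries, among 11510 genes. Between 1 and 3 of the nearest genes are given for each. For Mmp3 the closest were the interferon response genes Ifit3b and Ifit3, at 0.34 and 0.38, and then Iigp1 at 0.41. Iigp1 was not highest in D4, with means of 46.3 CPM in D4 and 51.4 CPM in D6. Mmp10 lay closest to Enpp1 (0.13) and Slc7a2 (0.17), and Mmp13 to Igsf10 and Olfml2a (0.17 each). Mmp13 was at place 24 in the order for Mmp10, and Mmp10 at place 40 in that for Mmp13 (0.27). Mmp2 lay closest to Rab3il1 (0.04), Mmp11 to Abcb10 (0.06), and Mmp9 to Qpct (0.26). Mmp14 had Plk4 (0.06), Smtn and the collagen gene Col1a2 (0.07 each) nearest. The inhibitors lay closest to Eif2s2 (Timp1, 0.07), Susd6 (Timp2, 0.03) and the overlapping Syn3 (Timp3, 0.05). Smaller values mean a more similar course in these 8 libraries, and they carry no test.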

How the data were processed

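Per the submitters' processing notes, reads were trimmed with Trimmomatic 0.39 and counted with featureCounts on mm10. The sources used here do not give the aligner, the annotation, the strandedness or the handling of shared reads. A deposited table (32108 genes, 8 columns) holds CPM made by the authors. It is titled TPM, and each column sums to 1000000, which is true of TPM and CPM alike. The reading as CPM rests on the low values of each column, which share a constant step across genes. Of values above 0, 52.8% to 54.3% were whole reads (tolerance 0.0002 reads), so a count test was not run.

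Symbols, mm10 coordinates and exon lengths came from GENCODE M21 for 32063 genes. The 15358 genes past the filter were fitted with limma 3.58.1 (R 4.3.3) on log2(CPM + 1), with a coefficient per day over all 8 libraries, 4 residual degrees of freedom and an intensity trend. Tests were two-sided, with Benjamini-Hochberg adjustment across every tested gene. Figures were drawn with Python 3.11.15. The fit was tested on simulated data.

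The members and lists were chosen with earlier results of these data known. Named list genes are up to 6 a list by the largest change, among genes called in the F test that reach 5 CPM, and all other family members may be named. Exceptions are marked, except where genes are named as undetected. A gene that the rule would name is not reported here. Alternatives were a pseudocount of 0.1, no filter or one of 5 CPM, 2 other scalings, a replicate block, no intensity trend, and leaving out each library.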

Additional observations from a re-analysis of the deposited data

How the results depend on the processing

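For the 10 genes, the counts for D4 against D2, D8 against D2 and the F test stayed within 1.5 times of those reported under every alternative run. Counts of the other lists moved more, as given beside them for libraries left out. Without the filter on low values, 4 genes fell from D4 to D6 and 0 rose and 0 fell from D6 to D8, and without the intensity trend 0 rose and 0 fell from D6 to D8. A pseudocount of 0.1 and median-of-ratios scaling each left 1 fall from D6 to D8. Leaving out single libraries gave 0 to 1 rises and 0 to 2 falls from D6 to D8, so the 3 calls of that step depend on single libraries. The cause was not tested.

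Of 600 single changes of the 10 genes under the alternatives, 553 kept direction and side of the threshold, 26 lost a call, 7 gained one and 14 turned sign. Sign turned for D4 against D2 of Mmp9 (-0.0818 with median-of-ratios scaling, -0.22 with quantile normalization, -0.47 to 0.50 with a library left out), D8 against D2 of Timp2 (-0.13) and D6 against D4 of Timp3 (-0.0742), both with median-of-ratios scaling. With a library left out it also turned for Timp3 (-0.0506 to 0.0652) and, in D8 against D6, for Mmp3 (-0.0926 to 0.0418), Mmp10 (-0.19 to 0.0878), Mmp13 (-0.32 to 0.0531) and Timp2 (-0.0316 to 0.0518). None of these was called in the reported fit. Among list genes, D8 against D2 was called in the reported fit for Mmp16 (0.21, adjusted p = 0.028) and Fos (0.39, adjusted p = 0.0076). With quantile normalization these changes turned to -0.0688 and -0.0489.

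Of all called genes in D4 against D2, 65.3% were higher as deposited, 52.5% with median-of-ratios scaling and 47.1% with quantile normalization, and the median change of all tested genes was 0.11, 0.01 and -0.03. For D8 against D2 the shares were 67.2%, 50.7% and 45.1%. The correlations of replicate differences between days ran from -0.102 to 0.207. They cannot show whether libraries with the same replicate number share an embryo or dish. With a replicate block, 6 genes rose and 3 fell from D2 to D4, and 8 fell from D4 to D6, Timp1 being added (adjusted p = 0.039). With 2 libraries a day, the SE of a change was largest among the 10 genes for Mmp9 (0.22), then Mmp13 (0.14), Mmp3 and Mmp10 (0.13 each).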
